A study of Mus musculus with 4 samples.

Results

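The insulin-like growth factor (IGF) genes followed here were the 9 rows of the deposited gene table named Igf1 and Igf2 (the ligands), Igf1r (the signalling receptor) and Igfbp2, Igfbp3, Igfbp4, Igfbp5, Igfbp6 and Igfbp7 (6 binding proteins), out of 24441 rows in all. They were taken by gene name, and all 9 passed the filter on low values. The skin came from female C57BL/6 mice of postnatal week 8 in which scleroderma-like skin fibrosis was induced with bleomycin (BLM), given under the skin every other day for 28 days. There were 2 libraries from wild type (WT) mice and 2 from GSDMD-/- mice (KO), and both genotypes had received BLM, so the comparison is of genotype within BLM-treated skin and no untreated skin was analysed here. The KO mice were made by injecting Cas9 mRNA and a guide RNA into C57BL/6 fertilized eggs and lack gasdermin D, the pore-forming executor of pyroptosis. No source used here states whether littermates served as controls.

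IGF1 and IGF2 are secreted ligands that bind IGF1R, a receptor tyrosine kinase which signals through insulin receptor substrates to the PI3K and AKT kinases and supports cell growth and survival. In the extracellular space most IGF is held by IGF binding proteins, which prolong its life, keep it from the receptor or deliver it to the cell surface, and which are themselves cut by proteases. In skin the ligands and several of the binding proteins are made largely by dermal fibroblasts, IGFBP7 is abundant in vascular cells, and IGF signalling and IGFBP3 and IGFBP5 have been studied in fibrosis.

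Igfbp2 and Igfbp5 are neighbours on chromosome 1. In the mm9 build Igfbp2 spans chr1:72871077-72899048 on the plus strand and Igfbp5 spans chr1:72904506-72921458 on the minus strand, so that their 3′ ends face each other with 5457 bases between them. The promoters of this pair, and one promoter of Igf2, are shown because Igfbp2 and Igf2 were the 2 members whose KO and WT values did not overlap, while Igfbp5 is the neighbour of Igfbp2. Each window holds the 250 bases before a RefSeq transcription start (GRCm38.p6 build), read 5′ to 3′ on the gene's strand, and capitals mark GC boxes (GGGCGG, or CCGCCC on the other strand).
Igfbp2, chr1:72824230-72824479, plus strand: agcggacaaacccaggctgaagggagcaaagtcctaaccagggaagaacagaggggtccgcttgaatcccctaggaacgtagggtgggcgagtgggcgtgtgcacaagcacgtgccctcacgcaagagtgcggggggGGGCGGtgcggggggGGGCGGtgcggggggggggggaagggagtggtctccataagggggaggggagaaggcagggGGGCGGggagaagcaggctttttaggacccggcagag
Igfbp5, chr1:72874866-72875115, minus strand: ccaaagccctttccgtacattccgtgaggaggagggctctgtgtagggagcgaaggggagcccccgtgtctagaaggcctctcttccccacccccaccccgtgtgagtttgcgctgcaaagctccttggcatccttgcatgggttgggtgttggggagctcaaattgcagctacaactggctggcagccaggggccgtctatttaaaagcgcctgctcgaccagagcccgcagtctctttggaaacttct
Igf2, chr7:142657497-142657746, minus strand: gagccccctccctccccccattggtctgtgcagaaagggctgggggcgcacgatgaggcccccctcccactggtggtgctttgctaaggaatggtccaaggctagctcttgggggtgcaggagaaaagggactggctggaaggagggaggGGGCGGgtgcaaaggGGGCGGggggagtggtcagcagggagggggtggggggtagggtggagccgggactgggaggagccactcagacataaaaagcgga
The Igfbp2 window held 3 GC boxes, the Igf2 window 2, and the Igfbp5 window none. A GC box was present in 32.7% of the 32851 RefSeq promoter windows of this length, and a TATA box (TATAAA, or TTTATA on the other strand) in 12.4%. RefSeq lists 13 starts for the 9 genes, of which 5 windows held a GC box and 2, those of Igfbp4 and Igfbp6, held a TATA box. The window of the other Igfbp2 start held 0 GC boxes and those of the other 3 Igf2 starts held 1, 0 and 0. All 250 bases of that Igf2 window with 1 GC box, and of the Igf1 window, also lie in coding transcripts of the same gene. Of the remaining genes, Igfbp7 had 4 GC boxes in its window and Igf1r had 2. A value per gene does not tell which start was used.

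The values were FPKM, a fragment number scaled to transcript length and to the size of the library, so that levels can be compared between genes. Differences are given as log2 fold changes of FPKM + 1, KO minus WT, from limma, with the standard error (SE). Adding 1 understates the change of low genes. The smallest two-sided p that exact permutation of 2 against 2 libraries can reach is 0.333. The WT libraries are called WT 1 and WT 2, and the KO libraries KO 1 and KO 2.

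The deleted gene was checked first. Gsdmd stood at 14.0 (WT 1), 18.2 (WT 2), 3.53 (KO 1) and 2.26 FPKM (KO 2), a log2 fold change of -2.14 (SE 0.29, adjusted p = 0.248). The KO values were the lower ones in each case. Across the 13027 genes tested, 0 passed an adjusted p under 0.05 with a log2 fold change beyond 1 in either direction (0.0%), while with an unadjusted p under 0.05 in its place 539 genes were lower and 802 were higher in KO. No IGF gene therefore passed the adjusted test.

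The library KO 2 stood apart. Summed over 10 fibroblast markers it held 37.9 FPKM, against 367.1 and 253.6 in WT and 603.7 in KO 1, and it was the lowest of the 4 libraries for 9 of these 10 genes. For endothelial markers it was lowest in 8 of 8 genes (16.0 FPKM against 102.3 to 149.9 in the others), for adipocyte markers in 8 of 8 (182 against 2520 to 6972) and for macrophage markers in 9 of 9 (38.5 against 446 to 1024). Keratinocyte markers, which define the epidermis, summed to 5254 FPKM in KO 2, 5012 and 3577 in WT and 10794 in KO 1, so epidermal RNA was present in all libraries. This sum does not speak for the other tissues of the skin. KO 1 was highest for 9 of 10 hair follicle markers (341.5 FPKM against 2.51 to 24.0). Skeletal muscle markers were very high throughout, at 26195 (WT 1), 23998 (WT 2), 15988 (KO 1) and 17144 FPKM (KO 2). Both KO values were below both WT values for 5 of these 8 genes, and for 20.5% of all tested genes. KO 2 was also lowest for 6 of 8 mural and smooth muscle markers (679 FPKM against 1065 to 1364), 4 of 5 Schwann cell markers (75.4 against 260 to 312) and 5 of 5 T cell markers found in the table (1.94 against 6.19 to 7.59). All 4 Y-linked genes examined had values above 0 in KO 2, with a sum of 1.78 FPKM, against 0 in WT 1, WT 2 and KO 1. The labels give every animal as female. The log2 fold change of each of the 9 IGF genes is therefore given with and without KO 2. In whole skin, fewer cells of a type and less RNA per cell cannot be told apart.

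The log2 fold changes of the 9 IGF genes pointed in both directions, and 7 of the genes had KO and WT values that overlapped. KO 1 lay inside the range of the 2 WT libraries for 6 of 9 genes, as 26.9% of all tested genes did, and KO 2 for 3 of 9 (13.8% of all tested genes). KO 2 lay below the WT range for 5 of 9 genes, Igf1, Igf2, Igfbp5, Igfbp6 and Igfbp7 (37.0% of all tested genes), and was the lowest of the 4 libraries for these 5. The KO values were both under the lower WT value for 1 gene, Igf2 (20.5% of all tested genes), and both over the higher one for 1 gene, Igfbp2 (35.3% of all tested genes). Those same genes were the 1 lower and the 1 higher member at an unadjusted p under 0.05 and a log2 fold change beyond 1, a rule that 4.14% of all tested genes met downward and 6.16% upward. Igf2 lost this call in 7 of 14 alternative settings, among them a pseudocount of 0.1 and a filter at a mean of 5 FPKM, and Igfbp2 lost it in 5 of 14. Of the 9 log2 fold changes 5 were negative and 4 positive, with a median of -0.47 against 0.11 over all tested genes. Without KO 2, Igf2 (-0.63) was the only member with a negative value, and the median over all tested genes was 0.11. The lean of the members below all tested genes was thus not seen without that library.

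**Figure D1:**
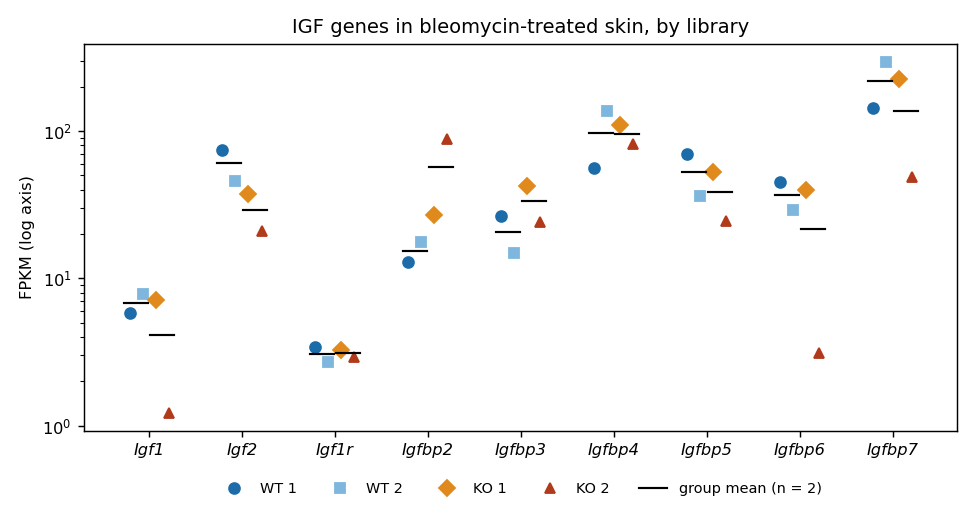
FPKM of the 9 IGF genes in each library, on a log axis, with 1 point per library and a bar at each group's mean. Igf2 is lower in both KO libraries and Igfbp2 higher in both, and for Igf1, Igfbp6 and Igfbp7 the KO 1 point sits among the WT points while KO 2 lies far below.

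The ligands came first. Igf2, the growth factor of fetal tissues that is imprinted together with the non-coding RNA H19, stood at 74.7 (WT 1), 45.9 (WT 2), 37.5 (KO 1) and 20.9 FPKM (KO 2). The groups did not overlap, but KO 1 was closer to WT 2 than to KO 2. The means were 60.3 ± 20.3 FPKM in WT and 29.2 ± 11.8 FPKM in KO (SD, n = 2 each, exact permutation p not below 0.333), and the log2 fold change was -1.04 (SE 0.40, limma unadjusted p = 0.0475, adjusted p = 0.290). Without KO 2 it was -0.63. Igf2 lies at chr7:149836673-149852721 (mm9, minus strand), where an exon of the antisense gene Igf2as overlaps it on the opposite strand. The antisense row of the table, Igf2os, did not exceed 0.137 FPKM in any library, and whether the counting used strand is not stated.

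Igf1, the growth hormone-responsive ligand on chromosome 10 (chr10:87321010-87399792, plus strand), was far lower, at 5.81 and 7.81 FPKM in WT, 7.07 FPKM in KO 1 and 1.22 FPKM in KO 2. KO 1 lay between the WT libraries and only KO 2 was low, so the groups overlapped. The log2 fold change was -0.87 (SE 0.64, adjusted p = 0.481), and 0.058 without KO 2. The 1.22 FPKM of KO 2 corresponds to between 7.91 and 110 fragments, depending on which annotated transcript is assumed. Together the ligands gave 80.5 (WT 1), 53.7 (WT 2), 44.5 (KO 1) and 22.1 FPKM (KO 2), and Igf2 exceeded Igf1 in every library, by 5.30-fold in KO 1 to 17.2-fold in KO 2.

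The receptor, Igf1r (chr7:75097713-75371484, plus strand), stood at 3.43 (WT 1), 2.70 (WT 2), 3.28 (KO 1) and 2.93 FPKM (KO 2), so that both KO values fell between the WT values. Its log2 fold change was 0.02 with a 95% interval from -0.61 to 0.65 (SE 0.25, adjusted p = 0.968), so a change within those limits could not be seen with these libraries. Without KO 2 it was 0.081. Igf1r had the lowest level of the 9 genes in WT. By its annotated transcripts of 3804 to 4181 bases, its values rest on about 142 to 249 fragments a library. The deposited row runs on to 75378553, beyond the annotated end, and a longer transcript would mean more fragments.

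Among the binding proteins, Igfbp2, which binds IGF2 with high affinity, had the greatest positive difference with all 4 libraries, but not without KO 2, where Igfbp3 had it. Igfbp2 stood at 12.9 and 17.6 FPKM in WT, 26.7 FPKM in KO 1 and 87.8 FPKM in KO 2. Both KO libraries were above both WT libraries, yet they differed from each other by more than KO 1 did from WT. The means were 15.3 ± 3.28 FPKM in WT and 57.3 ± 43.2 FPKM in KO (SD, n = 2 each, exact permutation p not below 0.333), a ratio of 3.75, and the log2 fold change was 1.62 (SE 0.58, limma unadjusted p = 0.0380, adjusted p = 0.276). Without KO 2 it was 0.78.

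Its neighbour Igfbp5, a binding protein that also attaches to the extracellular matrix, did not follow it. Igfbp5 stood at 69.8 (WT 1), 36.2 (WT 2), 52.4 (KO 1) and 24.6 FPKM (KO 2), with overlapping groups. The log2 fold change was -0.47 (SE 0.49, adjusted p = 0.610), and 0.058 without KO 2. The ratio of Igfbp2 to Igfbp5 within a library was 0.185 and 0.486 in WT, 0.510 in KO 1 and 3.57 in KO 2, so that Igfbp2 exceeded its neighbour in KO 2 only. For the mean ratio in KO against that in WT the exact permutation p was 0.333, the smallest possible.

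Igfbp3, the main carrier of IGF in serum (chr11:7106089-7113926, minus strand), stood at 26.6 and 14.8 FPKM in WT, 42.6 FPKM in KO 1 and 24.3 FPKM in KO 2. KO 1 was above both WT libraries and KO 2 was between them. The log2 fold change was 0.67 (SE 0.42, adjusted p = 0.424), and 1.06 without KO 2 (limma adjusted p = 0.326). It was 0.28 without KO 1, 0.27 without WT 2 and 1.07 without WT 1. Igfbp4 (chr11:98902558-98913969, plus strand), which holds IGF away from the receptor until the protease PAPP-A cuts it, stood at 56.1 (WT 1), 137.4 (WT 2), 109.7 (KO 1) and 81.5 FPKM (KO 2). Both KO libraries fell between the WT libraries, and the log2 fold change was 0.10 with a 95% interval from -1.11 to 1.32 (adjusted p = 0.918), and 0.32 without KO 2.

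Igfbp6, which prefers IGF2 over IGF1, had the greatest negative difference of the 9 genes with all 4 libraries, but not without KO 2, where Igf2 had it, or without WT 1, where Igfbp7 had it. Igfbp6 stood at 44.9 and 29.1 FPKM in WT, 39.9 FPKM in KO 1 and 3.12 FPKM in KO 2, about 868, 460, 610 and 44.2 fragments. KO 1 lay between the WT libraries and KO 2 was far below all others. The log2 fold change was -1.52 with an SE of 1.08 and a 95% interval from -4.27 to 1.23 (adjusted p = 0.470), and it was 0.14 without KO 2. Igfbp6 lies at chr15:101974793-101979942 (plus strand) and has 1 annotated transcript of 1112 bases.

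Igfbp7, a low-affinity IGF binder abundant in vessels, was the highest of the 9 genes in WT and in KO by mean, at 143.3 and 296.2 FPKM in WT, 223.8 FPKM in KO 1 and 48.8 FPKM in KO 2. Again KO 1 lay between the WT libraries and KO 2 below them. The log2 fold change was -0.97 (SE 0.79, adjusted p = 0.521), and 0.12 without KO 2. The gene lies at chr5:77778265-77837070 (minus strand) and its exons overlap an exon of Polr2b on the opposite strand, so some reads could belong to either gene.

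**Figure D2:**
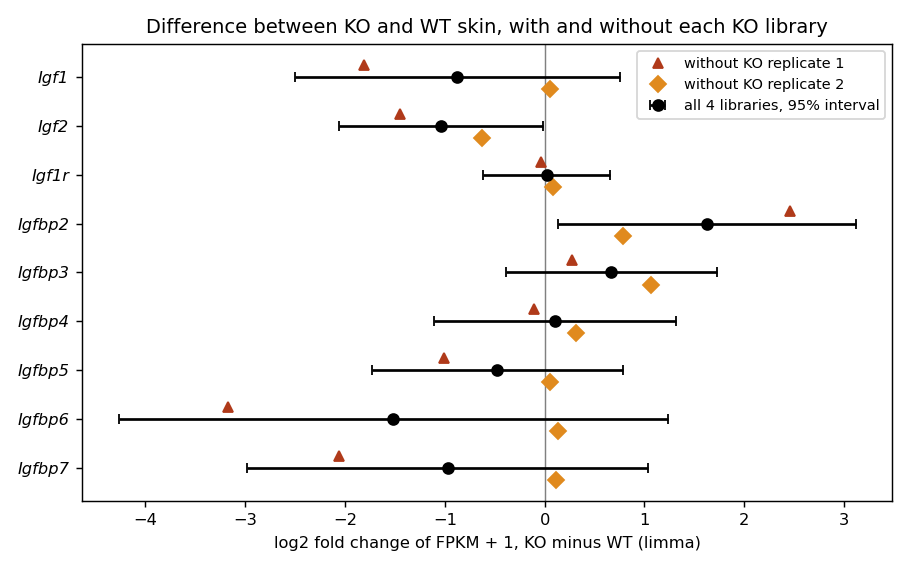
Log2 fold change of FPKM + 1, KO minus WT, for the 9 IGF genes with its 95% interval from limma, and the same value without KO 1 (triangles) and without KO 2 (diamonds). Only the intervals of Igf2 and Igfbp2 stay on one side of 0, and the values without KO 2 for Igf1, Igfbp5, Igfbp6 and Igfbp7 lie at 0.058 to 0.14.

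In WT skin the levels ran from Igfbp7 through Igfbp4, Igf2, Igfbp5, Igfbp6, Igfbp3 and Igfbp2 to Igf1 and Igf1r. The ranges of Igfbp4 and Igf2 overlapped, as did those of Igf2 and Igfbp5, of Igfbp5 and Igfbp6 and of Igfbp3 and Igfbp2, so the order within each of these pairs is not set. Both WT values of Igfbp6 lay below those of Igfbp4 and of Igf2. In KO skin the mean of Igfbp2 ranked in position 3 and that of Igfbp6 in position 7, but there each gene's range overlapped that of its neighbour.

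The 6 binding proteins summed to 353.5 and 531.3 FPKM in WT, 495.2 FPKM in KO 1 and 270.0 FPKM in KO 2, so the total did not separate the groups. Within that total Igfbp2 had a larger share in KO 2 than in the other libraries, and Igfbp7 and Igfbp6 a smaller one. Igfbp2 made up 3.66% and 3.31% of the total in WT, 5.40% in KO 1 and 32.5% in KO 2. Igfbp7 made up 40.5% and 55.8% in WT, 45.2% in KO 1 and 18.1% in KO 2, and Igfbp6 12.7% and 5.48% in WT, 8.07% in KO 1 and 1.15% in KO 2. The smallest exact permutation p that any share could reach was 0.333.

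**Figure D3:**
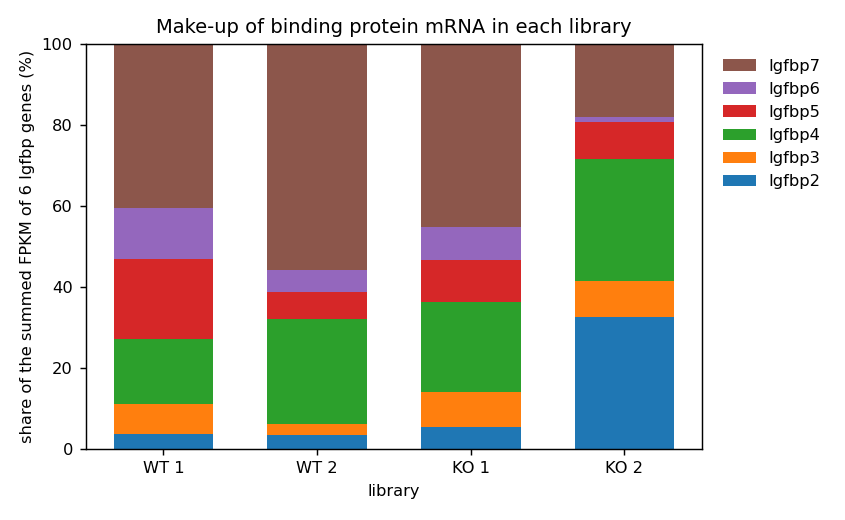
Share of the summed FPKM of the 6 binding protein genes taken by each gene, 1 stacked bar per library, in percent. Igfbp7 is the widest band in the WT libraries and KO 1, and Igfbp2, at 32.5%, is the widest in KO 2.

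The IGF genes that were low in KO 2 can be set beside the marker lists that were low in the same library. Relative to the WT mean on the log2(FPKM + 1) scale, Igfbp6 stood at 0.14 in KO 1 and -3.18 in KO 2, Igfbp7 at 0.12 and -2.06, and Igf1 at 0.058 and -1.81. The mean of the fibroblast markers stood at 1.09 and -2.39, that of the endothelial markers at 0.12 and -2.40 and that of the macrophage markers at -0.76 and -3.29. Igf2 stood at -0.63 and -1.45 and Igfbp2 at 0.78 and 2.46, while the mean of the keratinocyte markers stood at 1.47 and 0.10. That mean joins unlike genes. Both KO values were above both WT values for 4 of the 8 keratinocyte markers, Krt5, Krt14, Trp63 and Dsp, while KO 2 was the lowest library for 3, Krt1, Krt10 and Lor. The skeletal muscle markers stood at -0.67 and -0.61 and the adipocyte markers at -0.57 and -3.83. Like Igf2, these lists and the macrophage markers were below the WT mean in both KO libraries. Unlike Igf2, the adipocyte mean in KO 1 (6.91) was above that in WT 1 (6.71). Both KO values were below both WT values for 5 of 8 skeletal muscle, 3 of 8 adipocyte and 7 of 9 macrophage markers, and for 20.5% of all tested genes. The hair follicle markers stood at 3.91 and 0.85, with both KO values above WT for 7 of 10 genes. Among all tested genes 35.3% had both KO values above WT. The part of these cell types in the IGF values was not tested.

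**Figure D4:**
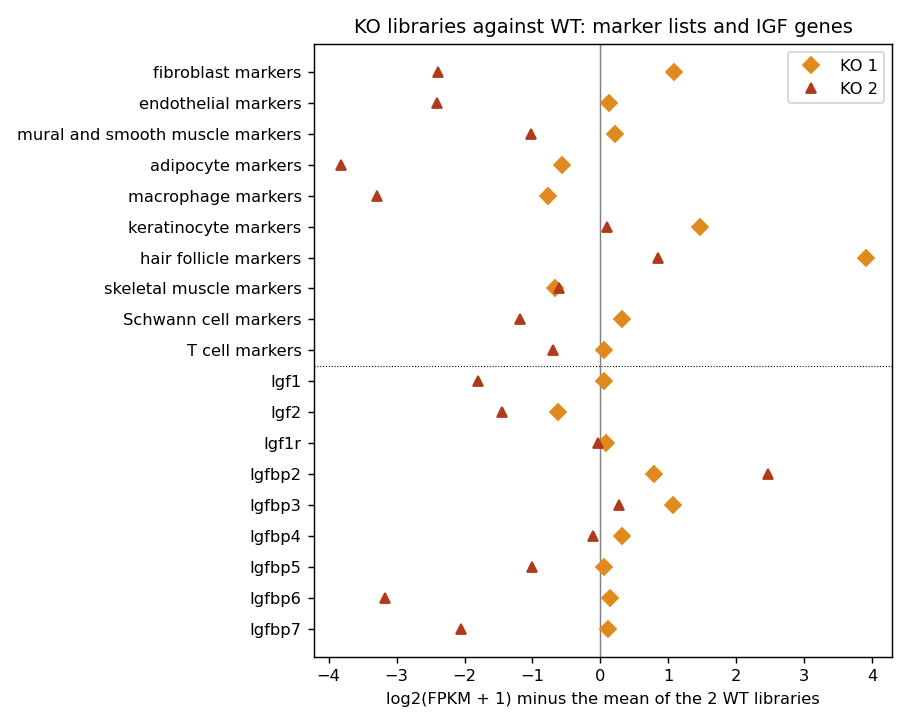
Difference of each KO library from the mean of the 2 WT libraries, in log2(FPKM + 1), for the cell type marker lists (mean over each list's genes) and for the 9 IGF genes. In KO 2 (triangles) the fibroblast, endothelial, adipocyte and macrophage lists and Igf1, Igfbp6 and Igfbp7 lie far to the left, and Igfbp2 lies to the right.

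By the distance of their centred log2(FPKM + 1) profiles over the 4 libraries, the genes most like Igfbp6 were Gm5416 (distance 0.37), Serpinf1 (0.39) and Bgn (0.41). Bgn, which encodes the matrix proteoglycan biglycan, stood at 90.7 and 87.3 FPKM in WT, 89.4 FPKM in KO 1 and 8.55 FPKM in KO 2, and Gm5416 was listed at 0 in KO 2. The genes most like Igfbp2 were Abhd3 (0.21), Pxmp4 (0.28) and Rmdn3 (0.28). Pxmp4, a peroxisomal membrane protein, stood at 14.6 and 22.2 FPKM in WT, 26.1 FPKM in KO 1 and 107.3 FPKM in KO 2. With 4 libraries such likeness mostly says in which library a gene was high or low.

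Of 54 other genes of the IGF pathway, 43 passed the filter on low values. Of these, 0 met the unadjusted rule downward and 0 upward, against 4.14% and 6.16% of all tested genes. The KO values were both under the WT values for 16 of the 43 and both over them for 9, against 20.5% and 35.3% of all tested genes. Their log2 fold changes had a median of -0.24, against 0.11 over all genes, within a range from -1.43 to 0.64, and adjusted p-values lay between 0.276 and 0.909. Without KO 2 the lowest log2 fold change was -0.66 (Lrp1) and the highest 0.64 (Grb14). By role, 3 of 6 genes of the growth hormone axis had both KO values under WT and 0 had both over. Among the 18 genes of the PI3K, AKT, FOXO and mTOR group 6 were under and 6 over, and among the 8 tested substrates and adaptors 1 was under and 3 over. The tested genes of the Igf2 locus group had 2 of 2 under, and the cell surface binders of IGFBP3 2 of 2. The proteases of binding proteins and their inhibitors had 1 of 4 under, the other receptors 1 of 2 and the other carriers 0 of 1. No gene of these last roles was over.

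Igf2r, the receptor that clears IGF2 without signalling, stood at 14.2 (WT 1), 16.6 (WT 2), 11.003 (KO 1) and 6.57 FPKM (KO 2) (log2 fold change -0.78, SE 0.31, adjusted p = 0.297). Without KO 2 the log2 fold change was -0.44. Airn, its antisense RNA, stood at 19.2 (WT 1), 10.5 (WT 2), 10.9 (KO 1) and 6.63 FPKM (KO 2), and the rows of the pair could share reads. The insulin receptor gene Insr stood at 7.16 (WT 1), 7.41 (WT 2), 7.53 (KO 1) and 6.44 FPKM (KO 2), with a log2 fold change of -0.058 (0.041 without KO 2).

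Ghr, the growth hormone receptor, stood at 60.5 and 121.7 FPKM in WT, 60.0 FPKM in KO 1 and 19.7 FPKM in KO 2 (log2 fold change -1.29, adjusted p = 0.343, with -0.51 without KO 2, -2.07 without KO 1, -0.79 without WT 2 and -1.79 without WT 1). KO 1 was thus close to WT 1. H19, the non-coding RNA of the Igf2 domain, stood at 1067 (WT 1), 1044 (WT 2), 853 (KO 1) and 565 FPKM (KO 2) (log2 fold change -0.60, adjusted p = 0.354, and -0.31 without KO 2). Igf2 came to 6.999% and 4.396% of the H19 level in WT and to 4.39% and 3.69% in KO, so WT 2 and KO 1 were nearly equal in this ratio.

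Of the substrates that IGF1R phosphorylates, Irs1 stood at 5.10 (WT 1), 4.83 (WT 2), 5.24 (KO 1) and 5.72 FPKM (KO 2), a log2 fold change of 0.12 (0.065 without KO 2). Irs2 stood at 2.07 and 4.47 FPKM in WT, 2.19 FPKM in KO 1 and 0.914 FPKM in KO 2, a log2 fold change of -0.73 (-0.36 without KO 2, -1.10 without KO 1, -0.31 without WT 2 and -1.15 without WT 1). The KO values of Irs1 were both above the WT values by little, and the groups overlapped for Irs2. Pappa, the protease of IGFBP4, and Stc1, one of its inhibitors, stayed below 1 FPKM in every library and were not tested. Stc2, another of its inhibitors, stood at 3.97 (WT 1), 6.38 (WT 2), 4.14 (KO 1) and 1.91 FPKM (KO 2), a log2 fold change of -0.65 (-0.24 without KO 2, -1.06 without KO 1 and -0.36 without WT 2).

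**Figure D5:**
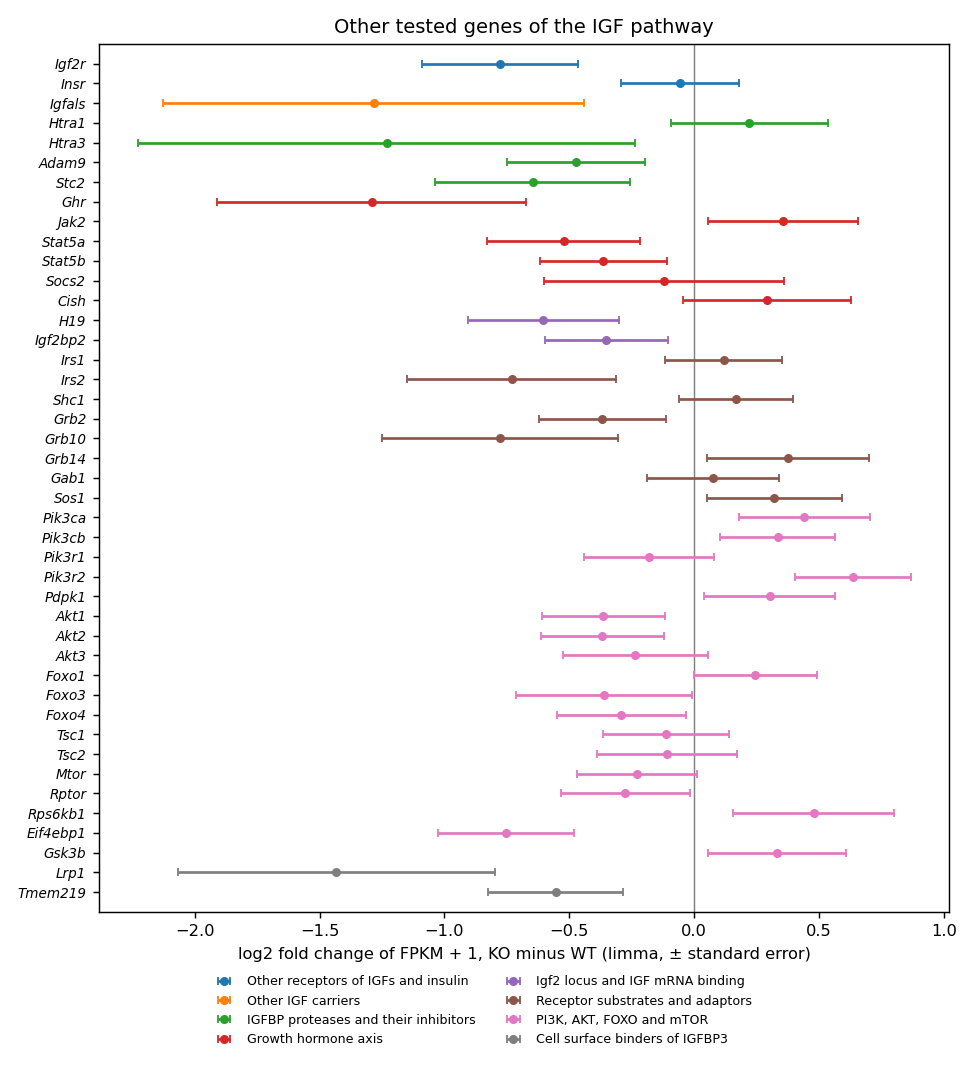
Log2 fold change of FPKM + 1, KO minus WT, with its standard error from limma, for the 43 tested genes of the IGF pathway outside the 9 members, coloured by role. The values run from -1.43 to 0.64. No gene met the unadjusted rule in either direction, while 4.14% of all tested genes met it downward and 6.16% upward.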

How the data were processed

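RNA from BLM-treated WT and KO skin was sequenced by the authors, 2 libraries a genotype. The deposited values are named raw counts in the labels, but 99.993% of those above 0 are not whole, and they are FPKM; the submitters' processing notes name HISAT2 2.0.1, StringTie 2.0.6 and mm9, and the study's methods name HISAT2, featureCounts and DESeq2. Which step made the FPKM is not stated, so no count model was used. FPKM summed to between 448544 and 462251 per library. From the lowest steps of 2710 genes with 1 transcript, 1 fragment on 1 kb was worth 0.0575 to 0.0784 FPKM; fragment numbers are approximate and cover counting error only.

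The filter asked for 1 FPKM or more in 2 or more libraries, and the 13027 genes that met it were tested on log2(FPKM + 1) with limma 3.58.1 (R 4.3.3), with Benjamini-Hochberg adjustment over all of them; the code was tested on simulated data. The 9 genes, the pathway and marker lists and the tests were chosen with earlier results of these data known. Named genes were every member, Gsdmd, a fixed set of pathway genes and the 3 genes nearest in profile to the members with the greatest fall and rise. The labels do not say that the libraries come from separate mice, so p-values measure only the spread between these libraries. One further gene of the pathway was left out of the list and its counts and is not reported here. Same-numbered libraries did not deviate together (correlation -0.20). Coordinates are from GENCODE M1 on mm9, where 99.2% of the 20310 matching table genes overlapped the annotated gene; promoters are RefSeq windows on GRCm38.p6. Alternatives were other pseudocounts (0.5 and 0.1), filters, scalings, no trend, a replicate block and leaving out each library.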

Additional observations from a re-analysis of the deposited data

How the results depend on the processing

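By limma, no gene passed the adjusted threshold in any alternative that kept all libraries, and leaving out 1 library gave 0 to 2058 such genes (2058 without KO 1, where KO 2 is alone and assumed to vary like WT, and 43 without KO 2). Without KO 1, 5 of 9 members passed the adjusted threshold by limma, as 15.8% of all tested genes did: 0.00414 for Igfbp2 (higher), and 0.0412 for Igf2, 0.0122 for Igf1, 0.00223 for Igfbp6 and 0.0214 for Igfbp7 (lower). The count of members lower in KO, 1 as reported, was 0 with a pseudocount of 0.1, with no filter, with a mean of at least 5 FPKM, with scaling to TPM and with the crossed replicate block, 2 with the replicate block (Igfbp6 beside Igf2, where 5.27% of all tested genes met the rule), and 0 to 5 when 1 library was left out (5 without KO 1, where 12.3% of all tested genes were lower, and 0 without WT 1 or KO 2). The count of members higher, 1 as reported, was 0 with no filter and with the crossed replicate block and 0 to 1 when 1 library was left out (0 without WT 1 or WT 2; without KO 2 the 1 gene was Igfbp3, not Igfbp2, where 5.63% of all tested genes were higher). Lower pathway genes numbered 1 with the replicate block, 3 with the crossed block and 0 to 8 when 1 library was left out (8 of 43 without KO 1), against 0. Of all tested genes 5.23% were lower with the crossed block. The crossed pairing was chosen after seeing the data; the same-numbered libraries share only a number. The sign of the log2 fold change turned for Igf1r under median-ratio (-0.082) and upper-quartile scaling (-0.057) and for Igfbp4 under median-ratio scaling (-0.032). With 1 library left out, values ran from -1.81 to 0.058 for Igf1, -0.11 to 0.15 for Igf1r, -0.53 to 0.74 for Igfbp4, -1.005 to 0.058 for Igfbp5, -3.18 to 0.14 for Igfbp6, -2.06 to 0.12 for Igfbp7, -1.45 to -0.63 for Igf2, 0.78 to 2.46 for Igfbp2, 0.27 to 1.07 for Igfbp3 and -0.156 to 0.041 for Insr. Median-ratio scaling moved the median of all genes from 0.112 to -0.0061 and the unadjusted calls from 802 higher and 539 lower to 616 and 700; upper-quartile scaling gave 656 and 667. Apart from those that left out a library, the cause of these changes was not tested.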

Other observations

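Some pathway genes outside the naming rule were picked after their values were seen. Eif4ebp1, a translation repressor under mTOR, stood at 177 (WT 1), 242 (WT 2), 131 (KO 1) and 114 FPKM (KO 2), with a log2 fold change of -0.75 (SE 0.27, adjusted p = 0.276, and -0.65 without KO 2). Pik3r2, a regulatory subunit of PI3K, stood at 14.95 (WT 1), 17.5 (WT 2), 25.6 (KO 1) and 25.8 FPKM (KO 2), with a log2 fold change of 0.64 (SE 0.23, adjusted p = 0.278, and 0.63 without KO 2). Lrp1, a receptor that binds IGFBP3 at the cell surface, stood at 18.7 and 41.3 FPKM in WT, 17.3 FPKM in KO 1 and 5.25 FPKM in KO 2 (log2 fold change -1.43, adjusted p = 0.322, with -0.66 without KO 2 and -2.21 without KO 1). Htra3, a protease of binding proteins, stood at 19.4 and 30.9 FPKM in WT, 30.1 FPKM in KO 1 and 2.79 FPKM in KO 2 (log2 fold change -1.23, adjusted p = 0.519, with 0.29 without KO 2 and -2.75 without KO 1). Igfbp1 and Irs4 were listed at 0 in all 4 libraries.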
